A study of Mus musculus with 4 samples.

Results

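The resting transcriptome of control peritoneal macrophages was described from the 2 arrays that the series labels control and untreated, out of 4 arrays in all. A gene was kept when at least 1 of its probes had a detection p-value under 0.05 on both arrays, and it was represented by its brightest kept probe. This kept 8532 of the 19057 genes with a named probe, or 44.8%, and left out 10525. Kept genes were ranked by their mean log2 intensity, with rank 1 the brightest.

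The cells were sorted peritoneal macrophages of C57BL/6 mice with an age range of 8 to 16 weeks, given no treatment. Their genotype is labelled only as control, and the labels state neither whether these mice carried a Cre transgene or a floxed allele nor whether the 2 samples came from separate animals or from pools. The spread between the arrays may therefore be technical. Total RNA was hybridised as biotin-labelled cRNA to Illumina bead arrays, on which each probe reports the brightness of the transcript that binds it. The markers used for the sort are not given in the sources used here. In bulk samples of this kind, fewer cells of a type and less RNA per cell cannot be told apart.

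Macrophages of the peritoneal cavity are tissue-resident phagocytes that clear dying cells, microbes and debris from the serous fluid. The resident population is divided into large peritoneal macrophages, which carry high F4/80 (encoded by Adgre1) and depend on the transcription factor GATA6, and small peritoneal macrophages, which are nearer to monocytes and carry more MHC class II. Survival of tissue macrophages depends on signalling through the CSF1 receptor, and digestion of what they take up depends on an acidic lysosome filled with proteases and hydrolases.

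Of the 45281 probes, 16380 (36.2%) were detected on the array of control replicate 1 and 16096 (35.5%) on that of control replicate 2. The median intensity before normalization was 144 on the first array and 141 on the second. Values below are on the log2 scale after background correction and quantile normalization of the 2 arrays, and pairs of values are given for replicate 1 and then replicate 2. Kept genes had mean levels between 5.76 and 15.72, with a median of 9.34 and quartiles at 7.72 and 10.89. The brightest 10% of the kept genes, 853 genes called the top 10% below, lay at or above 12.33. These genes held 61.7% and 61.9% of the summed linear signal of all kept genes on the 2 arrays, and the 100 brightest genes (1.17%) held 21.2% and 21.3%.

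All 5 genes taken as markers of these macrophages were kept. Lyz2, which encodes the macrophage form of lysozyme, read 15.28 and 15.28 and ranked 58th of the 8532 genes. Adgre1, the gene of F4/80, read 14.84 and 14.75 and ranked 103rd, with a mean of 14.79 ± 0.07 (SD, n = 2 arrays). Csf1r, the receptor for the macrophage growth factors CSF1 and IL-34, read 14.26 and 14.06, a mean of 14.16 ± 0.14. All 3 lay well inside the top 10% of the kept genes on both arrays.

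Gata6, which encodes the transcription factor that specifies large peritoneal macrophages, read 13.79 and 13.67 and ranked 269th, among the top 3.15% of kept genes. Itgam, the integrin alpha chain CD11b, read 10.82 and 11.32 and ranked 1955th, among the top 22.9%. Its difference of 0.50 between the arrays was the largest of the 5. Itgam has 1 probe on the array, while the probes of the other markers did not read alike. The kept probes of Gata6 spanned 7.21 on the log2 scale, those of Lyz2 5.07, those of Adgre1 4.05 and those of Csf1r 2.03, so a rank belongs to the brightest probe as much as to the gene.

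**Figure D1:**
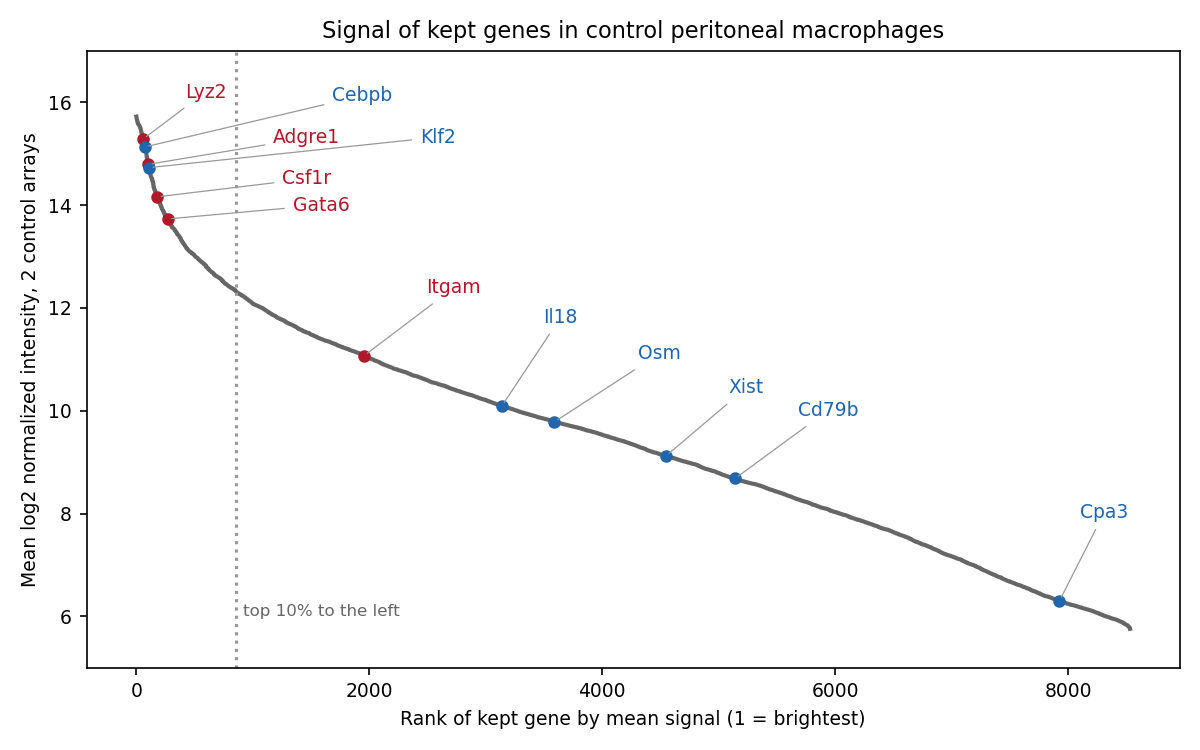
Mean log2 normalized intensity over the 2 control arrays (vertical) of the 8532 kept genes by rank (horizontal, 1 is the brightest), with the 5 marker genes in red, some other named genes in blue and the edge of the top 10% as a dotted line. Lyz2, Adgre1, Csf1r and Gata6 lie left of the dotted line, and Itgam lies right of it at rank 1955.

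Of 25 genes for macrophage surface and signalling proteins with a probe, 24 (96%) were kept, against 44.8% of all genes, and 18 of them lay in the top 10%. Their median level was 14.02, compared with 9.34 over all kept genes. Besides Lyz2 and Adgre1, the brightest were Lyz1, the other lysozyme, at 15.49 and 15.54, and Laptm5, a lysosomal membrane protein of blood cells, at 15.24 and 15.28. Lyz1 and Lyz2 are close in sequence, so signal of the 2 genes may be shared between their probes. Fcer1g, the signalling chain of activating Fc receptors, read 14.73 and 14.89. Cx3cr1, the fractalkine receptor of monocytes and of many tissue macrophages, was the member that was not kept, with detection p-values of 0.141 and 0.121.

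The genes listed for large peritoneal macrophages were kept in 32 of 33 cases (97.0%), and 25 of the 32 lay in the top 10%, with a median of 13.91. This list gave 10 of the 100 brightest genes. Saa3, an acute-phase apolipoprotein made by macrophages, read 15.65 and 15.64. Fcna, a ficolin that recognises microbial sugars, read 15.49 and 15.61, and Fn1, which encodes fibronectin, read 15.46 and 15.58. Among the members the naming rule did not reach, and which are given here after their values were seen, were Selp, the adhesion molecule P-selectin, at 14.61 and 14.49, and the coagulation factor genes F10 at 14.47 and 14.40 and F5 at 14.28 and 14.20. Arg1, the arginase that converts arginine to ornithine, read 14.07 and 14.02, also named after its values were seen. The dimmest kept member was Aspa, an aspartoacylase, at 7.32 and 6.93, and the member that was not kept was Cd36, a scavenger receptor for lipids.

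The same samples were read for genes of small peritoneal macrophages and monocytes. Of 21 members, 15 (71.4%) were kept and 2 lay in the top 10%, with a median of 10.23. Those 2 were the chemokine gene Ccl9, at 15.33 and 15.22, and Retnla, a secreted product of alternatively activated macrophages, at 15.10 and 15.21. Cd74, the invariant chain of MHC class II, read 12.32 and 12.14, and H2-Ab1, a class II beta chain, read 11.27 and 11.33. The 6 members not kept included Ccr2, the chemokine receptor of inflammatory monocytes, with detection p-values of 0.737 and 0.899.

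**Figure D2:**
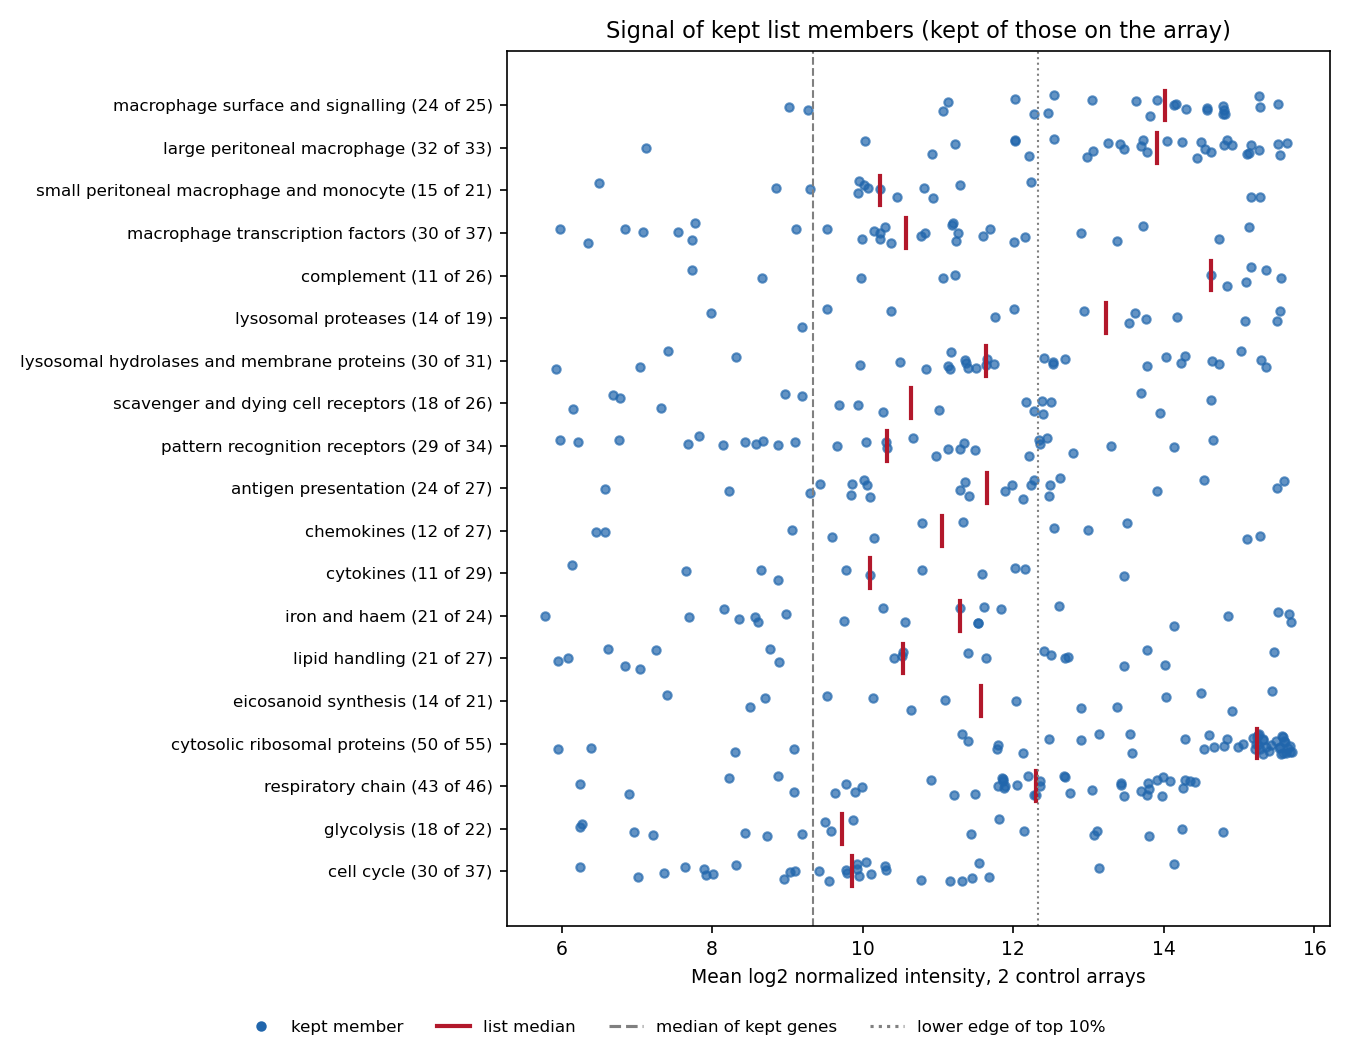
Mean log2 normalized intensity over the 2 control arrays (horizontal) of the kept members of 19 gene lists (rows), 1 dot per gene with a vertical scatter that has no meaning, a red bar at each list's median, and the number kept of those on the array beside each name. The medians of the macrophage surface, large peritoneal macrophage, complement, lysosomal protease and ribosomal protein lists lie above the dotted edge of the top 10% at 12.33. The lists were chosen with earlier results of these data known.

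Transcription factors are often expressed at low levels, and 30 of 37 in the macrophage list (81.1%) were kept with a median of 10.57. The top 10% held 5 of them. Cebpb, which drives inflammatory and metabolic genes in myeloid cells, read 15.16 and 15.09. Klf2, a zinc finger factor that restrains inflammatory gene expression, read 14.77 and 14.68, and its relative Klf6 read 13.45 and 13.30. Gata6, described above, lay between them.

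Bhlhe40, a helix-loop-helix repressor, read 13.06 and 12.74. Just under the edge of the top 10% were Tcf4, an E protein, at 12.23 and 12.07, and Irf5, which mediates signalling from Toll-like receptors, at 11.97 and 12.05. Zeb2, needed for macrophage identity, read 11.72 and 11.66. Spi1, which encodes the master myeloid factor PU.1 and is named here after its values were seen, read 11.01 and 11.40 and ranked above the median of the kept genes. The 7 members not kept were Bhlhe41, Pparg, Mitf, Tfec, Id3, Spic and Nr4a1.

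Complement genes included a very bright set and many that were not detected. Of 26 members, 11 (42.3%) were kept, a share close to the 44.8% over all genes, yet 6 of the 11 lay in the top 10% and 5 among the 100 brightest. The C1q chains bind antibody and dying cells and start the classical pathway: C1qc read 15.56 and 15.56, C1qb 15.41 and 15.31, and C1qa 14.44 and 14.80. Vsig4, a receptor for fragments of C3, read 15.21 and 15.11, and Cfp, the stabilising factor properdin, read 15.02 and 15.16. C4a, which is in no list, read 15.71 and 15.73 and had the highest mean of all kept genes, and C4b read 14.81 and 14.86. C4a and C4b are near-identical copies of complement component 4, and which of them the probes report is uncertain.

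The proteases C1ra and C1s1, which complete the C1 complex, were not kept, nor was C2. The terminal components Hc, C6, C7, C8a and C9 were not kept either. Also not kept were the regulators Cfi, Cd55, Cd46 and Serping1, the receptors C3ar1 and Cr2, and the integrin chain Itgax. A gene that was not kept was not detected on both arrays by any of its probes, which sets no upper limit on its transcript.

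Lysosomal proteases and their inhibitors were kept in 14 of 19 cases (73.7%), 8 of them in the top 10%, with a median of 13.24. Cst3, which encodes the inhibitor cystatin C, read 15.54 and 15.55. Ctsb, the cysteine protease cathepsin B, read 15.51 and 15.50, Ctsa, protective protein cathepsin A, 15.15 and 15.02, and Ctsh, an aminopeptidase, 14.18 and 14.16. The probes of Ctsd and Ctsl, the major aspartic and a major cysteine protease of lysosomes, read lower, at 9.35 and 9.04 for Ctsd and at 7.82 and 8.16 for Ctsl. Each of these has 1 probe, and both were chosen after their values were seen. The osteoclast protease Ctsk and the granule proteases Ctsg and Ctsw were not kept, and neither were Ctso and Scpep1.

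Hydrolases and membrane proteins of the lysosome were kept in 30 of 31 cases (96.8%), with a median of 11.64 and 13 members in the top 10%. Psap, the precursor of the saposins that help degrade sphingolipids, read 15.31 and 15.42. Man2b1, lysosomal alpha-mannosidase, read 15.30 and 15.28, Grn, which encodes progranulin, 15.01 and 15.05, and Lamp2, a membrane glycoprotein of lysosomes, 14.87 and 14.59. Acp5, the tartrate-resistant phosphatase, was not kept. The proton pump that acidifies the lysosome, the V-ATPase, had 14 of 15 members kept (93.3%) at a median of 11.78, led by the accessory subunit gene Atp6ap1 at 14.06 and 14.05. The others named by the rule were Atp6v0e at 13.79 and 13.99, Atp6v1e1 at 13.79 and 13.52 and Atp6ap2 at 13.22 and 13.26.

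Promoter sequences were available for 28 of the 30 kept hydrolase and membrane protein genes, as the 250 bases before the start of the gene in RefSeq on GRCm38.p6. The 8 bases CACGTGAC, read on both strands, are the core of the element bound by TFEB and TFE3, regulators of lysosomal genes. They were present in 6 of these 28 promoters (21.4%), against 257 of the 7015 kept genes with a promoter (3.66%). In the other 7 lists with enough promoter sequences the share lay between 0% and 10%. Among the lists left out, it was 13.0% for macrophage transcription factors (3 of 23 promoters). It was 10% for lysosomal proteases and for the V-ATPase, each with 1 of 10 promoters. The shorter E-box CACGTG, which lies within those 8 bases, was found in 7 of the 28 (25%) and in 8.91% of all. That 25% was also the share in the immediate early and heat shock list (5 of 20 promoters). In the lysosomal protease list, among those left out, it was 30% (3 of 10). The longer palindrome, in which GT precedes the 8 bases, was found in 0 of the 28 and in 0.656% of all. CACGTGAC was not the only motif searched that was more frequent in this list. TTTCCTCTT was in 3 of the 28 (10.7%) and in 0.699% of all, and TGACTCA in 3 (10.7%) and in 2.71% of all. Others were less frequent, such as GGGCGG, in 50% of the 28 and in 61.0% of all. The promoters of Lamp1, which encodes the other major lysosomal membrane glycoprotein, and of Glb1, the lysosomal beta-galactosidase, are shown. These genes are among the brightest of the list whose promoters carry CACGTGAC. This motif begins 28 bases before the start of the Lamp1 transcript and 50 bases before that of Glb1. The strand is plus for both, Lamp1 at chr8:13158911-13159160 and Glb1 at chr9:114400828-114401077, and the capitals mark the motif, in Glb1 on the opposite strand.
Lamp1: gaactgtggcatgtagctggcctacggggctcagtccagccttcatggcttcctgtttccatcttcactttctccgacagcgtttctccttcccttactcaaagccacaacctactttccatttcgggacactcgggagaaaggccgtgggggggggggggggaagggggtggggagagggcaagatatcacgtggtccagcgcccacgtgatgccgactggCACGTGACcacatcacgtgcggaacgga
Glb1: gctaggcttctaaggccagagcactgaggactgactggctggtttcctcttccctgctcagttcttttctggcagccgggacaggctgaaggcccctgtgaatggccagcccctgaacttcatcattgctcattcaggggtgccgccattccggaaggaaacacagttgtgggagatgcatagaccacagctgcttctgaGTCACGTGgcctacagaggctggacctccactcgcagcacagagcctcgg
On the arrays, Lamp1 read 14.60 and 14.68 and Glb1 read 12.55 and 12.50. These promoters, and the motifs searched, were chosen after the levels of the genes had been seen, and a match is a description of the letters and not of a bound site.

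Genes for cytosolic ribosomal proteins made the largest class among the 100 brightest genes, with 31. Of 55 members with a probe, 50 (90.9%) were kept and 41 lay in the top 10%, at a median of 15.24. They held 7.88% of the summed signal of kept genes on each array. Rps12 read 15.74 and 15.67, Rpl9 15.64 and 15.72, Rps24 15.67 and 15.68 and Rps2 15.65 and 15.66, all proteins of the small or large ribosomal subunit. At the other end, Rps15a read 6.67 and 6.11 and Rpsa 5.85 and 6.05, and Rpl6, Rpl14, Rpl17, Rps20 and Rps23 were not kept. Ribosomal protein genes have many processed pseudogenes, so single probes may report more than their gene. This class gave 10 of the 20 brightest genes.

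Promoters were available for 42 of the 50 kept ribosomal protein genes. The 6 bases CGGAAG on either strand, the core recognised by many ETS family factors, were present in 26 of these 42 promoters (61.9%), against 27.7% of all 7015 and between 0% and 36.4% in the other 7 lists. The Rps12 promoter, on the minus strand at chr10:23787210-23787459, and the Rps2 promoter, on the plus strand at chr17:24719813-24720062, are shown because these genes are among the brightest and carry the motif. The motif, in capitals, begins 110 bases before the start of Rps12 and 127 bases before that of Rps2, where it reads on the opposite strand.
Rps12: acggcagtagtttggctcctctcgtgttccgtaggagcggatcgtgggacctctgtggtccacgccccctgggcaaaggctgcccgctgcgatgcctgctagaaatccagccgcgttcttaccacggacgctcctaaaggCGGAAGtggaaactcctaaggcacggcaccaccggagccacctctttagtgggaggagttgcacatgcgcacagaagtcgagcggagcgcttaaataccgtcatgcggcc
Rps2: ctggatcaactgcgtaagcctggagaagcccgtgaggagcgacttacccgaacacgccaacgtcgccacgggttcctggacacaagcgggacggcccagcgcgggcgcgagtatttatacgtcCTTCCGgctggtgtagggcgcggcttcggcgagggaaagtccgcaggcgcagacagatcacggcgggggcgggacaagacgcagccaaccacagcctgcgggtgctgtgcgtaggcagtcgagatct
In the top 10% as a whole, 71 of 693 promoters (10.2%) held TATAAA, against 6.46% of all kept genes with a promoter. With the kept genes in 10 rank bins of equal size, this share lay between 4.67% and 6.97% in the 8 bins that follow the brightest. In the lowest bin 79.3% of the genes had a promoter sequence, under the 80% required, and 54 of 677 promoters (7.98%) held TATAAA. That share was above those of the 8 bins. Any list in which under 80% of the kept genes had a promoter sequence is left out of the ranges given, which left 8 of 25 lists.

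Iron-handling genes were kept in 21 of 24 cases (87.5%), with 4 among the 100 brightest. Trf, the serum iron carrier transferrin, read 15.62 and 15.74. The ferritin chains that store iron read 15.66 and 15.66 for Fth1 and 15.58 and 15.46 for Ftl1. Slc11a1, which pumps divalent metals out of the phagosome, read 14.83 and 14.87. Slc40a1, which encodes the iron exporter ferroportin, was not kept, with detection p-values of 0.463 and 0.187, and neither were Hamp and Hjv.

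Genes of lipid handling were kept in 21 of 27 cases (77.8%) at a median of 10.54. Apoe, the apolipoprotein that macrophages secrete with cholesterol, read 15.43 and 15.49, Lpl, lipoprotein lipase, 13.92 and 14.12, Apoc1 13.78 and 13.78, and Pltp, a phospholipid transfer protein, 13.39 and 13.57. The cholesterol exporter Abca1 was not kept, nor were Cd36, Vldlr, Fabp4, Pparg and Mgll.

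Eicosanoid genes were kept in 14 of 21 cases (66.7%), with a median of 11.57 and 6 in the top 10%. Alox5ap, the activating protein of 5-lipoxygenase, read 15.41 and 15.46. Alox15, the 12/15-lipoxygenase of resident peritoneal macrophages, read 14.79 and 15.03. Ptgis, prostacyclin synthase, read 14.46 and 14.53, and Ltc4s, leukotriene C4 synthase, 14.04 and 14.02. These were the 4 brightest of the 14 kept members. The inducible cyclooxygenase Ptgs2 was not kept, with detection p-values of 0.474 and 0.671. Pla2g4a, Pla2g5, Ptgds, Hpgds, Alox12 and Lta4h were not kept either.

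Receptors for microbial products were kept in 29 of 34 cases (85.3%), with a median of 10.32. The top 10% held 7 members, led by Clec4d, a C-type lectin for mycobacterial glycolipids, at 14.68 and 14.62. Cd14, the co-receptor for lipopolysaccharide, read 14.11 and 14.15, and Fpr2, a receptor for formyl peptides, 13.31 and 13.30. Tlr13, which senses bacterial ribosomal RNA, read 12.79 and 12.79 and Tlr7, which senses single-stranded RNA, 12.37 and 12.31.

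The lipopolysaccharide partner Ly96 read 12.46 and 12.43, the adaptor Myd88 12.28 and 12.42 and the binding protein Lbp 12.23 and 12.18. Tlr4 itself, named after its values were seen, read 10.27 and 10.37. Tlr3 and Tlr9, sensors of double-stranded RNA and of unmethylated DNA, were not kept, nor were Tlr11, Tlr12 and Ifih1.

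Receptors for dying cells and modified lipoproteins were kept in 18 of 26 cases (69.2%), with 6 in the top 10%. Pros1, which encodes the bridging protein S that links dying cells to the TAM receptors, read 13.94 and 13.96, and Timd4, a receptor for exposed phosphatidylserine, 13.81 and 13.59. The TAM receptor gene Axl read 12.53 and 12.47, and C1qa, given above with complement, was the brightest of the list. Tyro3, the third TAM receptor, was not kept, nor were Stab2, Cd36, Cd300lf, Adgrb1, Itgb3, Itgb5 and Olr1.

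Secreted signals were taken as 2 lists. Among cytokines and growth factors 11 of 29 (37.9%) were kept, a share under the 44.8% over all genes, and 1 lay in the top 10%. That gene was Mif, a cytokine stored ready-made in macrophages, at 13.41 and 13.54. Tgfb1 read 12.18 and 12.14 and Tgfb2 12.16 and 11.88, both ligands of the TGF-beta family, which act on growth and immune suppression. Igf1, a growth factor, read 11.54 and 11.63, and Tnfsf13b, the B cell survival factor BAFF, 10.87 and 10.70.

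Il18, an inflammasome-processed cytokine, read 10.13 and 10.05, Osm, oncostatin M, 9.60 and 9.97, and Il15, which supports NK cells, 8.93 and 8.81. The inflammatory cytokine genes Il1b, with detection p-values of 0.128 and 0.0983, and Il6, with 0.552 and 0.267, were not kept. Tnf had detection p-values of 0.277 and 0.0321, so that it was detected on the array of replicate 2 alone. Il10, Il12a, Il23a, Il27 and Ifnb1 were also among the 18 that were not kept. Il1a, another inflammatory cytokine gene, was kept at a mean of 7.65 and is named after its values were seen.

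Chemokine genes were kept in 12 of 27 cases (44.4%), near the share over all genes, with 5 in the top 10%. Besides Ccl9, these were Pf4, platelet factor 4, which is also made by some macrophages, at 15.25 and 14.96, Ccl24, which draws eosinophils, at 13.42 and 13.60, Ccl6 at 13.07 and 12.91, and Cxcl13, which draws B cells, at 12.70 and 12.39. Cxcl14 read 11.33 and 11.32, Cxcl16 10.75 and 10.82 and Cxcl12 10.05 and 10.24. Ccl2, Ccl5, Cxcl9 and Cxcl10, which draw monocytes and T cells in inflammation, were not kept. Cxcl2, another chemokine of inflammation, was kept at a mean of 9.06 and is named after its values were seen. Ccl3, an inflammatory chemokine, read 7.08 and 6.08, and was among the 13 genes that differed most between the arrays.

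**Figure D3:**
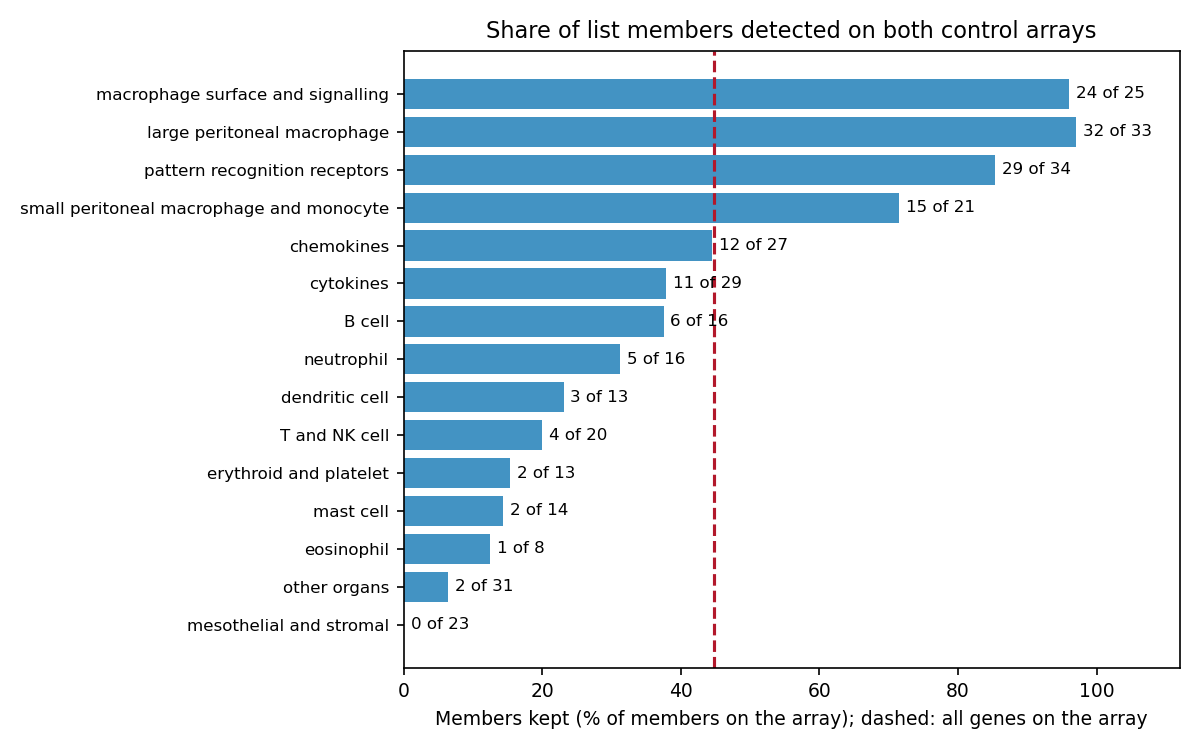
Percentage of list members with a probe that were detected on both control arrays (bars, with the number kept of those on the array), for macrophage, sensing and secreted lists, for 8 other cell types and for other organs, with a dashed line at the 44.8% of all genes. The 2 macrophage lists reach 96% and 97.0%, all 8 lists of other cell types lie under the line, and the mesothelial and stromal list is at 0 of 23. The lists were chosen with earlier results of these data known.

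Of genes for antigen presentation 24 of 27 (88.9%) were kept at a median of 11.65, with 7 in the top 10%. The 4 brightest act in class I presentation. H2-D1, a classical heavy chain, read 15.58 and 15.61 and B2m, its light chain, 15.48 and 15.53. Pdia3, a chaperone of class I loading, read 14.55 and 14.51 and the non-classical H2-T23 13.67 and 14.14. Ciita, the class II activator, Canx, a chaperone of class I, and H2-Oa were not kept. H2 genes are close in sequence, so the member that a probe reports is uncertain.

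Of interferon-stimulated genes 22 of 28 (78.6%) were kept. Their median of 9.34 equalled that of all kept genes, and 11 of the 22 ranked below it. The brightest were the membrane proteins that block viral entry, Ifitm3 at 15.56 and 15.62, Ifitm1 at 15.59 and 15.53 and Ifitm2 at 14.85 and 15.01, followed by Ifi27l2a at 13.58 and 13.36. The 2 kept probes of Ifitm1 spanned 8.89 on the log2 scale, the dimmer at a mean of 6.67. Isg15, a ubiquitin-like modifier, read 8.17 and 7.84, and Rsad2, the antiviral enzyme viperin, read 6.06 and 6.16, both chosen after their values were seen.

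Actin cytoskeleton genes, which serve phagocytosis and movement, were kept in 26 of 28 cases (92.9%) at a median of 12.92. Actb read 15.59 and 15.54, Cotl1, an actin-binding protein, 15.40 and 15.40, Arpc5, a subunit of the Arp2/3 complex, 15.02 and 15.09, and Tmsb4x, which sequesters actin monomers, 14.73 and 15.15. Nuclear genes of the respiratory chain were kept in 43 of 46 cases (93.5%) at a median of 12.31, with 21 in the top 10%. Atp5b, the catalytic subunit of ATP synthase, read 14.37 and 14.47, Atp5l 14.24 and 14.44, Cox4i1, a cytochrome oxidase subunit, 14.28 and 14.28 and Ndufa1, of complex I, 14.23 and 14.27.

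Glycolysis genes were kept in 18 of 22 cases (81.8%) at a median of 9.72, with 5 in the top 10%. Gapdh read 14.70 and 14.87, Ldha, lactate dehydrogenase, 14.29 and 14.18, Pkm, pyruvate kinase, 13.81 and 13.79 and Pfkl, phosphofructokinase, 13.04 and 13.18. Antioxidant genes were kept in 18 of 23 cases (78.3%), 10 of them in the top 10%. Gpx1, glutathione peroxidase, read 15.58 and 15.56, Mt1, metallothionein, 14.60 and 14.44, Prdx1, a peroxiredoxin, 14.52 and 14.17 and Gpx4, which protects membrane lipids, 14.18 and 14.27.

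Cell cycle genes were kept in 30 of 37 cases (81.1%) at a median of 9.85, and 2 lay in the top 10%. These were the D-type cyclin genes Ccnd1, at 14.18 and 14.09, and Ccnd3, at 13.08 and 13.19. Mcm4, of the replicative helicase, read 11.70 and 11.66 and Cdkn1a, the inhibitor p21, 11.37 and 11.71. Cdk1, the mitotic kinase, named after its values were seen, read 9.60 and 9.50, and Ccna2, Ccnb2, Ccne2, Bub1 and Ube2c of the replication and mitosis programme were not kept.

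Immediate early and heat shock genes, which respond to cell handling as well as to stimulation, were kept in 24 of 32 cases (75%) at a median of 10.80. Hspa8, a constitutive chaperone, read 15.15 and 15.07 and Dusp1, a phosphatase of MAP kinases, 13.75 and 13.56, and Klf2 and Klf6 also belong to this list. Fos, named after its values were seen, read 9.71 and 9.85. The effect of isolation and sorting on these genes was not tested.

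Markers of 8 other cell types that a peritoneal sort could hold were kept in 23 of 123 cases (18.7%), and 6 of the 23 also belong to a macrophage or functional list. Of 24 defining markers 21 had a probe, 17 were detected on neither array, 2 on 1 array and 2 on both. The 2 detected on both were S100a8, a calcium-binding protein of neutrophils and monocytes, at 10.62 and 10.44, and Cpa3, a mast cell protease, at 6.25 and 6.36. The defining T and NK cell markers Cd3d, Cd3e and Ncr1, the eosinophil markers Epx, Prg2 and Siglecf and the stromal and mesothelial markers Msln, Upk3b and Col1a1 were detected on neither array. Ms4a1, the B cell marker CD20, was detected on the array of replicate 1 alone.

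B cell genes were kept in 6 of 16 cases (37.5%), all ranked below the median of the kept genes, and held 0.00487% and 0.00529% of the summed signal of kept genes. Cd79b, a chain of the B cell receptor, read 8.62 and 8.74, Fcmr, an IgM receptor, 7.56 and 7.54, Blk, a B cell kinase, 6.81 and 6.72 and Fcrla 6.38 and 6.93. Of the T and NK cell list 4 of 20 members (20%) were kept. Cd8b1, a chain of the CD8 co-receptor, read 12.29 and 12.24 with 1 of its 3 probes kept, while Prf1, perforin, read 8.98 and 8.93.

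Of the neutrophil list 5 of 16 members (31.2%) were kept. Csf3r, the receptor for G-CSF, read 12.46 and 12.52 and Prtn3, a granule protease, 12.51 and 12.28, while the neutrophil marker S100a9 was detected on neither array. Mmp9, a gelatinase, read 9.67 and 9.81. Mast cell genes were kept in 2 of 14 cases, with Hdc, histidine decarboxylase, at 10.07 and 9.98, a gene that is also in the large peritoneal macrophage list. The single kept member of the eosinophil list was Alox15, and of the dendritic cell list 3 of 13 were kept, with Bst2 at 9.88 and 9.70, Batf3 at 7.49 and 7.59 and Dpp4 at 5.78 and 5.77.

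Erythroid and platelet genes were kept in 2 of 13 cases, Pf4 as given above and the globin gene Hbb-bt at 6.17 and 5.93. No member of the mesothelial and stromal list was kept (0 of 23). Of 31 genes typical of other organs, which serve as a gauge of background, 2 (6.45%) were kept, Mbp, myelin basic protein, at 9.84 and 9.92, and Cela1, a pancreatic-type elastase, at 6.79 and 6.54. How far cells of other types contributed to these signals was not tested.

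The 2 arrays gave much the same ranking. Across the 8532 genes Pearson's r was 0.994, as a description, since genes are not independent replicates and both arrays share their probes. The median size of the difference between the arrays was 0.14 on the log2 scale, and it was over 0.5 for 451 genes (5.29%). Over 10 rank bins of equal size it was smallest in the brightest, with a median of 0.09, and largest in the 2 dimmest, at 0.24 in each. Of the 100 brightest genes of each array 93 were shared, and the median gene of the top 100 changed its rank by 8 places between the arrays.

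A difference over 1 on the log2 scale was found for 13 genes (0.152%), of which 7 were higher in replicate 2 and 6 in replicate 1, all in the 3 lowest of the 10 bins of signal. The largest were Zfp52, a zinc finger gene, at 7.27 and 6.03, and Eif4e, the cap-binding translation factor, at 7.09 and 5.86. Cnn2, an actin-binding calponin, read 8.49 and 7.26, and Twist2, a helix-loop-helix factor, 5.85 and 7.01. The exportin gene Xpo7 read 6.50 and 7.62, Rrp8 7.30 and 6.20, Zfp354a 6.96 and 5.87, Ly6d 5.87 and 6.95, Mcu, the mitochondrial calcium channel, 6.83 and 7.91, and Egfl7 5.77 and 6.82. With 1 group of 2 arrays no test of these differences is possible.

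**Figure D4:**
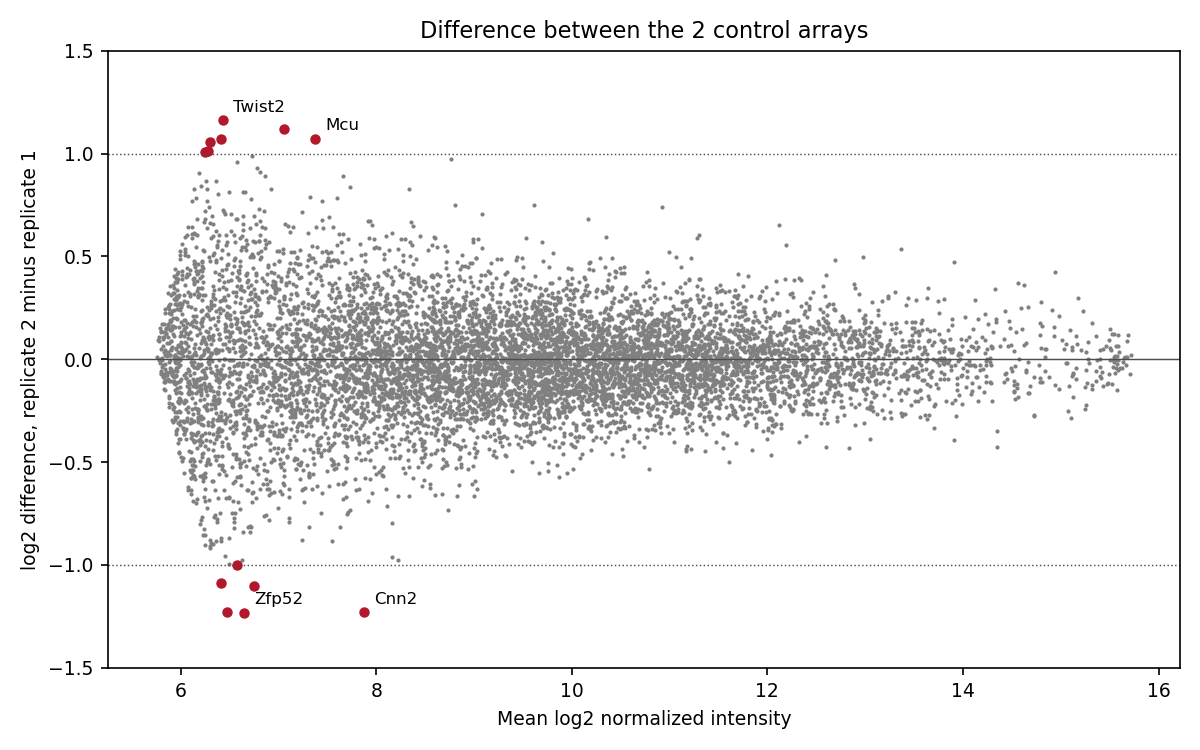
Difference between the 2 control arrays, replicate 2 minus replicate 1 on the log2 scale (vertical), against the mean log2 normalized intensity (horizontal) for the 8532 kept genes, with dotted lines at -1 and 1. The 13 genes beyond the lines, in red, all lie at the low end of the intensity scale.

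The order among the brightest genes was not resolved. The 20 brightest spanned 0.15 on the log2 scale, near the difference between the arrays, and the brightest probe on each array read 59519 and 53945 before normalization. Besides the genes given above, the 20 included Itm2b, an integral membrane protein of the BRI family, at 15.68 and 15.65 and Ecm1, an extracellular matrix protein, at 15.65 and 15.51. The ribosomal protein genes not yet given were Rplp2 at 15.64 and 15.60, Rps4x at 15.63 and 15.59, Rpl35 at 15.53 and 15.65, Rpl23 at 15.59 and 15.58, Rps19 at 15.61 and 15.56 and Rpl38 at 15.56 and 15.58.

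Probes of the same gene differed far more than the arrays did. Of 9172 genes with several probes, all probes were kept for 1860, some for 3388 and none for 3924. Among 3166 genes with at least 2 kept probes, the range over the probes had a median of 1.58 on the log2 scale (quartiles 0.63 and 2.98), while the median difference between the arrays in the same genes was 0.13. The range was over 1 for 2043 genes (64.5%) and over 2 for 1312 (41.4%). For Eef1a1, a translation elongation factor, it was 9.14, for Ctsa 8.50 and for Lamp2 8.17. The probes of B2m agreed to 0.02, those of Alox5ap to 0.04 and those of Fth1 to 0.35. These 6 genes were chosen after their values were seen.

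**Figure D5:**
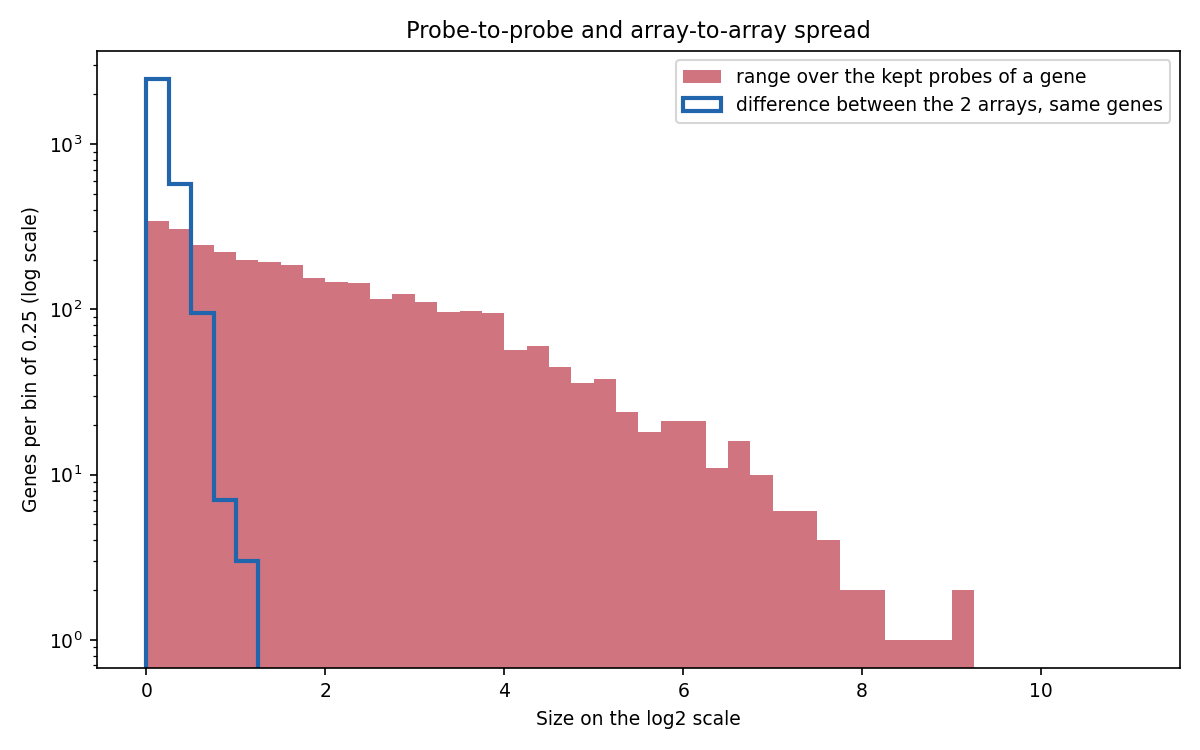
Number of genes (vertical, log scale) by the range of mean log2 intensity over a gene's kept probes (filled red) and by the size of the difference between the 2 control arrays in the same genes (blue outline), in bins of 0.25 on the log2 scale (horizontal). The 3166 genes have array differences with a median of 0.13 and probe ranges with a median of 1.58.

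The detection threshold separated genes of similar level. Just inside it, Synm, an intermediate filament gene, had detection p-values of 0.0491 and 0.00321 with levels of 5.74 and 6.65. Just outside it, Parp16, a mono-ADP-ribosyltransferase, had 0.00107 and 0.0502 with levels of 7.03 and 5.76, so its mean was the higher of the 2 genes although it was left out. In all, 925 genes were detected on 1 of the arrays and not on both by the same probe.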

How the data were processed

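Expression was measured in 2 control samples of sorted mouse peritoneal macrophages, 1 bead array each. The authors deposited probe intensity values that were not normalized, each with a detection p-value, per the file headers. They also deposited processed intensity values on a linear scale, used here as an alternative. Empty lines, 1349 in number, were dropped. The software behind both tables was not given in the sources used here.

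Intensities of the 2 control arrays alone were processed in R 4.3.3 by the neqc function of limma 3.58.1, which subtracts background, adds an offset of 16, equalises quantiles and takes log2. Summaries used Python 3.11.15 with pandas 2.3.3. The platform annotation gave 1 gene symbol for 34885 of the 45281 probes, several for 18 and none for 10378. Of these, 34807 matched RefSeq genes of GRCm38.p6 by identifier and no symbol changed. A probe needed a detection p-value under 0.05 on both arrays, and the brightest kept probe stood for its gene, which favours bright probes and depends on probe design. The number of arrays limits the precision, and n is 2 throughout.

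No group comparison and no test was made. Members and the 35 gene lists were chosen with earlier results of these data known, and so say nothing independent. Named genes were the 5 markers, the 20 brightest genes, the 4 brightest kept members of each list (8 for transcription factors, chemokines, cytokines and pattern recognition receptors), kept defining markers of other cell types and the 10 genes with the largest difference between arrays. Members that were not kept are named as such, and all further genes were chosen with their values in view. Promoters were the 250 bases before the first listed start in RefSeq, and 15 motifs were searched on both strands. RIKEN clones, predicted genes and unannotated probes enter counts and are not named. The probe choice and ranking steps were run on simulated data in which the probes to keep were given beforehand. The detection threshold and the normalization were not tested in this way. Alternatives covered detection, background, offset, scaling, the authors' values, joint normalization with the other arrays of the series, probes per gene and leaving out each array.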

Additional observations from a re-analysis of the deposited data

Results flagged for a closer look

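Signal appeared in data that the ranking of named genes did not use. Of the 15083 probes detected on both control arrays, 2060 have no gene symbol in the annotation used here and are unnamed. Of these, 252 (12.2%) lay at or above 12.33, the level that bounds the top 10% of the named genes, and the brightest had a mean of 15.78 on the log2 scale. The 12.2% counts single probes, while each named gene was represented by its brightest kept probe, so it cannot be compared with the 10%.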

How the results depend on the processing

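The 8532 genes kept became 7671 with a detection p-value under 0.01, 9457 when detection on 1 array was enough, and 8978 to 9043 when either array was left out. Of the 545 distinct list members kept, these settings gave 514, 577 and 560 to 562. The 225 list members in the top 10% numbered 214 with the mean over all kept probes of a gene, 230 to 232 with an array left out, and 225 with uncorrected intensities, the authors' values or all 4 arrays normalized together. Of the 100 brightest genes 77 remained in the top 100 with the mean over kept probes, and 96 to 100 under the other alternatives run. The median difference between the arrays, 0.14 in the main setting, was 0.21 with median scaling, 0.13 with an offset of 50, and 0.11 both with the authors' values and without background correction. The 13 genes that differed by over 1 on the log2 scale numbered 15 with median scaling, 1 with an offset of 50 and 0 in the remaining 2. Among 157 named genes the mean over kept probes moved the rank by up to 39.4 percentage points, leaving out an array by up to 12.6, and other normalizations by at most 0.93. Counts and levels of 1 group have no direction that an alternative could reverse. Choice of probe thus moved ranks most among the alternatives run, and every difference over 1 between the arrays lay in the 3 lowest of 10 rank bins, where signal over background was least. No paired analysis was possible because the description covers 1 group and rests on no test.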

Other observations

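Among the 100 brightest genes, 25 belonged to none of the 35 lists, and those named here were chosen after their values were seen. They included Emilin2, an extracellular matrix glycoprotein, at 15.53 and 15.59, and App, the amyloid precursor protein, at 15.50 and 15.37. The 4 kept probes of App spanned 9.17 on the log2 scale, down to a mean of 6.26, so its rank rests on the probe chosen. The kept probes of Emilin2 spanned 0.10. Ednrb, the endothelin receptor type B, read 15.45 and 15.36, and Sdc3, a cell surface heparan sulfate proteoglycan, 15.18 and 15.14. Enzymes in this set were Aldh2, mitochondrial aldehyde dehydrogenase, at 15.13 and 15.20, and Acly, which makes cytosolic acetyl-CoA from citrate, at 15.20 and 14.95. Cyba, a subunit of the phagocyte NADPH oxidase, read 15.09 and 15.15. Of 7 kept genes of the mitochondrial genome, CYTB, at 15.45 and 15.54, and ND4, at 15.53 and 15.45, were among the 100 brightest, while ND4L, with 1 probe, read 8.23 and 8.62.

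The labels give no sex for these samples. Xist, transcribed from the inactive X chromosome of females, read 9.05 and 9.19, and the Y-linked genes Eif2s3y, Kdm5d and Uty read 10.36 and 10.26, 7.23 and 7.02, and 6.29 and 6.63. All 4 were thus detected on both arrays, and the reason was not tested.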
